A study of Mus musculus with 6 samples.

Results

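The constitutive proteasome subunit genes were followed in the RNA of endothelial cells, the cells that line blood and lymph vessels, sorted by flow cytometry from mouse lung. They were taken by name, as the protein-coding genes called Psma, Psmb, Psmc or Psmd with a number, without the inducible or tissue-specific subunits Psmb8, Psmb9, Psmb10 and Psmb11. That gave 35 of the 24520 gene identifiers in the table, of which 15 (Psma and Psmb) belong to the core particle and 20 (Psmc and Psmd) to the regulatory particle. The study measured wild-type lungs at 2 ages, 3 libraries for the older age of 18 months (aged in the labels) and 3 for 8 months (mAdu in the labels), and age is the only difference the labels give. The unit is TPM, transcript abundance scaled for transcript length and to the total of each library, so levels can be set side by side between genes. Whether each library stands for its own mouse or for a pool is not stated in the labels, and p-values therefore rest on the spread among libraries, some of which may be technical. The markers of the sort are not stated either.

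The proteasome is the cell's main machine for degrading proteins tagged with ubiquitin. Its core particle is a barrel of stacked rings, with outer rings of alpha subunits (Psma) that control entry and inner rings of beta subunits (Psmb), of which Psmb5, Psmb6 and Psmb7 carry the cutting sites. The regulatory particle caps the barrel, and holds a ring of ATPases (Psmc) that unfolds substrates and a set of non-ATPase subunits (Psmd) that bind ubiquitin, remove it and hold the cap together. Interferon replaces the cutting subunits by Psmb8, Psmb9 and Psmb10, which form the immunoproteasome. The name rule also takes in Psma8, an alpha subunit known from the testis, and Psmd5, Psmd9 and Psmd10, which help to assemble the cap and leave before it is complete.

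Within the 250 bases before the RefSeq start of a gene (build GRCm38.p6), 4 stretches are shown as examples. Their genes are taken up below and hold at least 1 of 3 short motifs searched on both strands, as do other genes named below. The motifs were TGACNNNGC, the antioxidant response element bound by NRF1 and NRF2, which drive proteasome genes, CCAAT, bound by NF-Y, and CCGGAAG, bound by ETS factors. None of the 3 motifs contains another. Capitals mark the matches, and the bases run 5′ to 3′ on the strand of the gene, each stretch ending before the GENCODE start of the gene.
Psmb5, chr14:54618023-54618245, minus strand: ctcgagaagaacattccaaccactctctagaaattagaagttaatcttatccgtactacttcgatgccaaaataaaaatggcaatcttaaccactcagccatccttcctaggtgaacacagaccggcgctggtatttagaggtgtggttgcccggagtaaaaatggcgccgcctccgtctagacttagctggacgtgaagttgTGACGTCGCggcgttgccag
Psmb6, chr11:70525107-70525356, plus strand: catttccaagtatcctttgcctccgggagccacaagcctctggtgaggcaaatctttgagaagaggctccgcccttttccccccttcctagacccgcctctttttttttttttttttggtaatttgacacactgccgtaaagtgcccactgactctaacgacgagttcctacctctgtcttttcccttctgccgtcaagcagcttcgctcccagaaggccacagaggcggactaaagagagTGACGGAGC
Psmd2, chr16:20651402-20651651, plus strand: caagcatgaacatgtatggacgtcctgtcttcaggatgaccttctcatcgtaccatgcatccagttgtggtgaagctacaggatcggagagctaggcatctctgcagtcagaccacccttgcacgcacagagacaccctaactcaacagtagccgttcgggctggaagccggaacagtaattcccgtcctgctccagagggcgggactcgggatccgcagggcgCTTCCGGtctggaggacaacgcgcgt
Psmd4, chr3:95042615-95042864, minus strand: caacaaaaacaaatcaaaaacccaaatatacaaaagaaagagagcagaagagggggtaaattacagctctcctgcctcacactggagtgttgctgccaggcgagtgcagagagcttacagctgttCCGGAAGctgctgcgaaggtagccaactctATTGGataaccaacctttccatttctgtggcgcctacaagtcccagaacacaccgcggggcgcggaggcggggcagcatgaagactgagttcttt

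A promoter of 300 bases, 250 before to 50 after the start, was matched by symbol for 28 of the 35 genes (11 core, 17 regulatory). Psma8, Psmb1, Psmb2, Psmb7, Psmc3, Psmd3 and Psmd7 were not matched. The antioxidant response element was found for 5 of the 28, namely Psmb5, Psmb6, Psmc6, Psmd9 and Psmd12, a share of 17.9% against 14% of all 27025 genes with a promoter and 16.8% of the 9732 of them that were tested here. CCAAT was found for 11 of the 28 (39.3%, against 41.1% of all genes and 42.7% of those tested). CCGGAAG was found for 10 of the 28 (35.7%, against 9.93% of all genes and 20.2% of those tested). Of these 10, 9 were regulatory particle genes, such as Psmd2, Psmd4, Psmd6, Psmd11 and Psmd13, and 1 was a core particle gene, Psma6. A match of letters is no evidence of binding.

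As to the cells in the libraries, all 11 endothelial markers were present, with Pecam1 at 1354 ± 76.4 TPM for 18 months versus 1351 ± 62.4 TPM for 8 months (SD, n = 3), and Cdh5, Kdr, Eng and Cldn5 were lower at 18 months without overlap, 4 of 11 where 14.2% of all genes tested were (Kdr 373 ± 36.8 TPM for 18 months versus 540.1 ± 44.5 TPM for 8 months). Over the 11 endothelial markers the median log2 difference (18 minus 8 months) was -0.27 with 1 higher. It was -0.013 with 5 higher when log2 values were corrected for GC content and length of the transcripts. None of the marker genes passed the test between ages (limma, adjusted p under 0.05). Alveolar and airway epithelial markers summed to between 9575 and 19404 TPM at 18 months and between 11106 and 20276 TPM at 8 months over 10 genes, nearly all of it Sftpc and Scgb1a1, while Epcam was at most 1.38 TPM and Scgb3a2 measured 135, 96.8 and 55.5 TPM at 18 months against 42.5, 62.9 and 70.2 TPM at 8 months. Monocyte, macrophage and dendritic cell markers summed to between 932 and 1725 TPM and between 636 and 1771 TPM over 15 genes (Csf1r, C1qa and C1qc under 1 TPM in every library), with all 11 tested members higher on average at 18 months, Cd14 and Chil3 without overlap (4.48% of all genes). The closest Chil3 values of the ages were 140.5 and 140.1 TPM. Without the filter on low values 13 of 15 were higher, with Ccr2 and C1qa lower on average. The median log2 difference of the tested members was 0.66, or 0.39 without the first and 1.08 without the third 8-month library. Lymphocyte markers summed to between 16.7 and 18.4 TPM and between 13.4 and 49.6 TPM over 10 genes (3 of them under 1 TPM throughout, Cd79a between 2.66 and 11.4 TPM). Fibroblast and mural markers summed to between 18.5 and 23.7 TPM and between 34.5 and 51.8 TPM over 10 genes, and 6 of the 8 tested were lower without overlap (14.2% of all genes), among them Col1a1, at most 0.665 TPM at 18 months and at least 1.54 TPM at 8 months. Red cell and platelet markers summed to between 338 and 729 TPM and between 338 and 1878 TPM, with Hbb-bt at its highest, 179 TPM, in the third 8-month library. The third 8-month library had the highest sum of all of these but the fibroblast and endothelial lists. The part of these cells in the subunit values was not tested, and in bulk RNA fewer cells of a type and less RNA per cell cannot be told apart. Across genes, which are not independent replicates, Pearson's r of log2(TPM + 1) ran from 0.974 to 0.982 for libraries of one age and from 0.966 to 0.977 for libraries of different ages.

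All 35 genes passed the filter on low values, a mean over the libraries of 1 TPM or more, and none was left out of the test. Core particle genes were the more abundant, with mean levels over the 6 libraries between 1.94 TPM for Psma8 and 519 TPM for Psmb3, and a median of 259.9 TPM. Regulatory particle genes lay between 28.5 TPM for Psmd3 and 292 TPM for Psmc1, with a median of 136 TPM. The median of all 12748 genes tested was 14.9 TPM. The 6 ATPase genes had a median of 210.2 TPM and a narrow range, from 162 TPM for Psmc6 to 292 TPM for Psmc1. The 14 Psmd genes had a median of 113 TPM, and the assembly factors Psmd9 at 29.2 TPM and Psmd10 at 36.9 TPM were among the 4 lowest of the regulatory particle, with Psmd3 and Psmd5. Among the cutting subunits, Psmb6 lay at 321 TPM, Psmb7 at 190.2 TPM and Psmb5 at 137 TPM, so that subunits present once per ring differed in measured RNA level. The Psmb5 value is uncertain because of shared sequences, as described below.

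**Figure D1:**
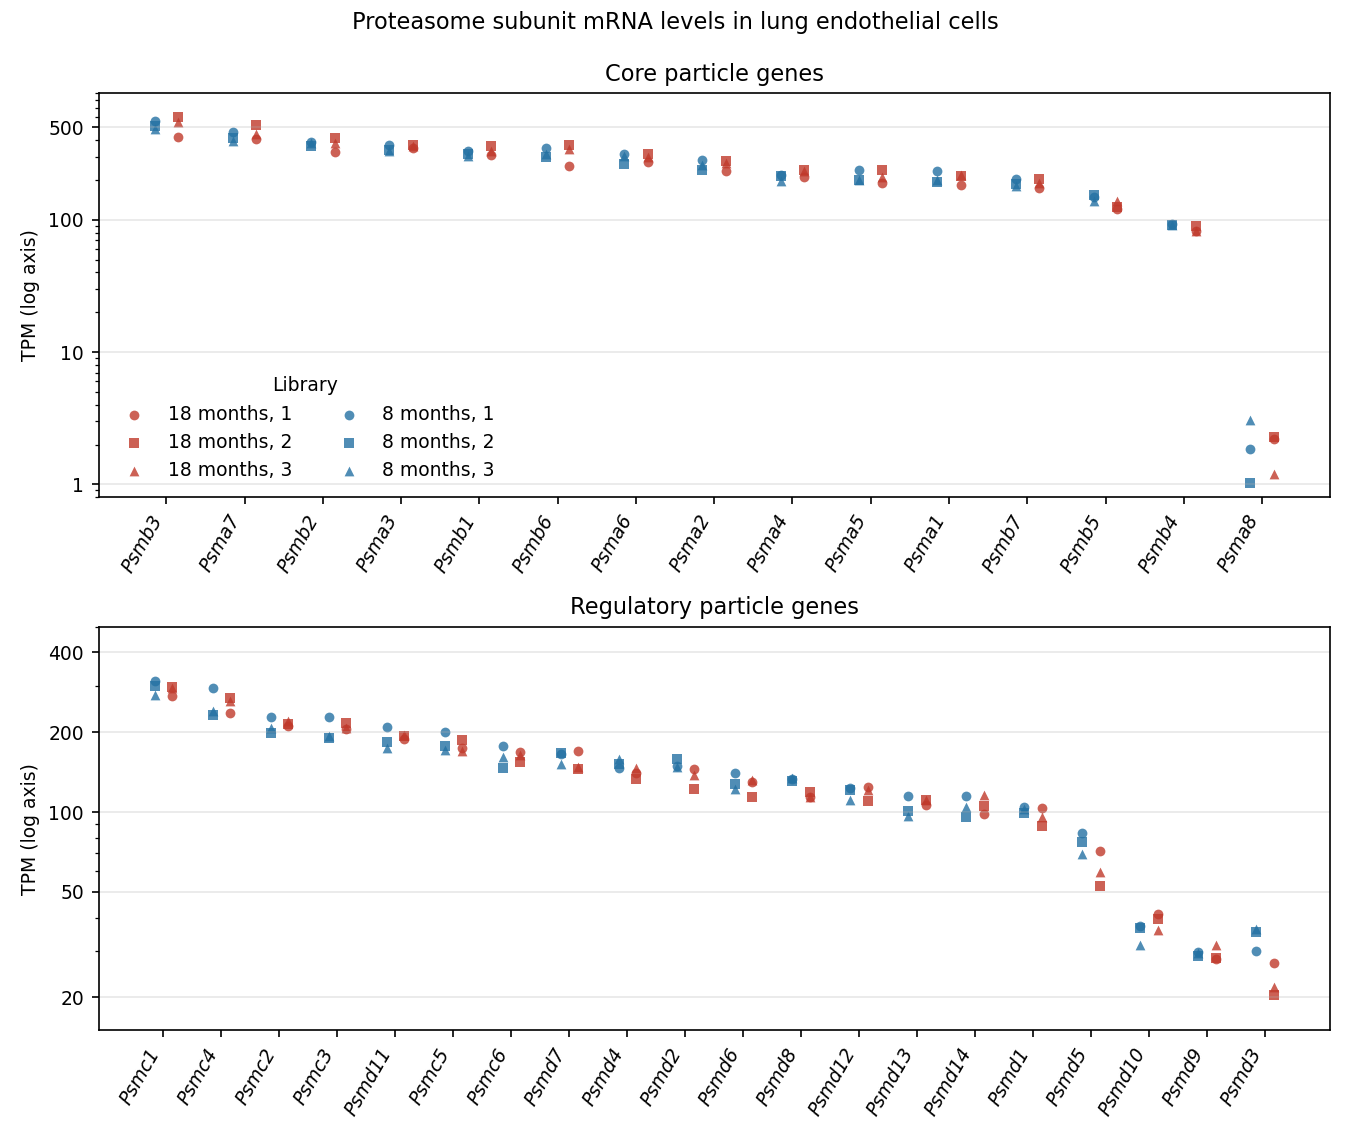
Level of each of the 35 proteasome subunit genes in TPM (log axis) in the 3 libraries of 18 months (red) and the 3 of 8 months (blue), with genes ordered by mean level within the core and the regulatory particle. Apart from Psma8 the core genes lay between 88.3 and 519 TPM on average, and the ages lay close together in nearly every gene.

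Between 8 and 18 months, none of the 35 genes passed the test (limma, Benjamini-Hochberg adjustment over all 12748 genes, threshold 0.05), where 0.0235% of all genes did (3 genes, 0.00784% as higher and 0.0157% as lower). At an unadjusted p under 0.05 there were 3 of the 35, all lower at 18 months, where 13.4% of all genes reached it in either direction, 3.45% as higher and 9.99% as lower. They were Psmd3, Psmd5 and Psmd8, all of the regulatory particle. The core particle genes had a median log2 difference of -0.0041, with 7 higher and 8 lower, and the regulatory particle genes one of -0.021, with 9 higher and 11 lower, beside a median of -0.079 over all genes, of which 66.2% were lower. Log2 differences are 18 minus 8 months in log2(TPM + 1). With median-of-ratios scaling of the libraries the medians were 0.093 and 0.075, with 13 of 15 and 15 of 20 genes higher, so neither particle had a direction that held under every scaling. That scaling moved the median of all genes to 0.0092. The median of the core less that of the regulatory particle was 0.017, between 0.006 and 0.029 under the alternatives that kept all libraries, -0.053 without the second 18-month library and 0.097 without the first. With single libraries left out the core median ran from -0.061 (without the second 18-month library) to 0.075 (without the first), and the regulatory median from -0.065 (without the third 8-month library) to 0.014 (without the first 8-month library).

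Most single differences were small. The difference was under 0.25 in size for 33 of the 35 genes, against 68.3% of all genes, and the 95% interval lay within 0.5 of zero for 32 of them, against 41.5% of all genes. Both limits were chosen after the values were seen. The exceptions to the first were Psmd3 and Psmd5, and to the second these and Psma8. The subunit genes lay higher than most genes and had smaller errors, with a median SE of 0.0995 against 0.163, and the part of their level in these counts was not tested.

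**Figure D2:**
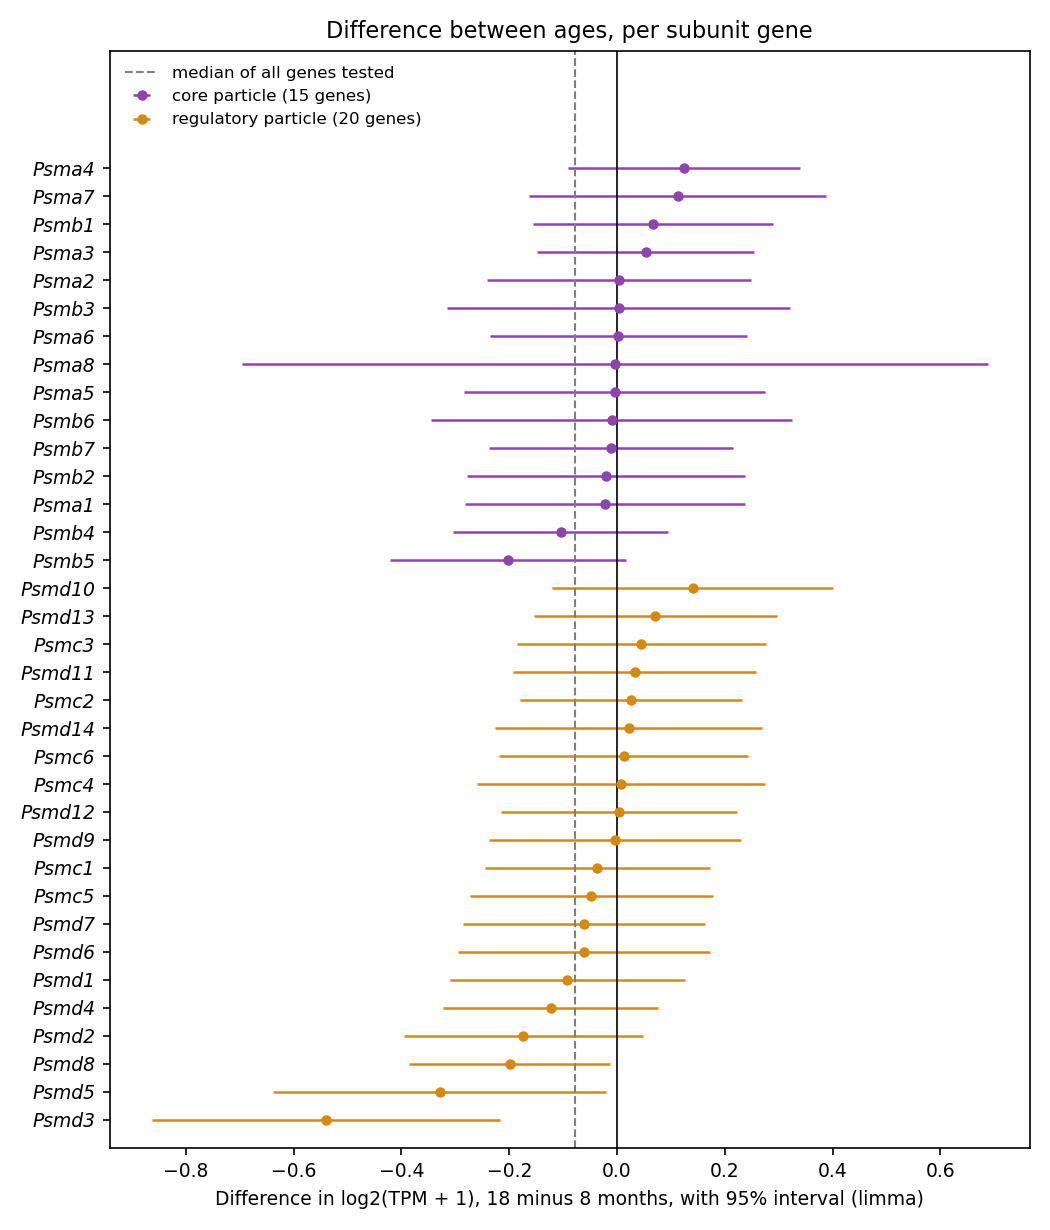
Difference in log2(TPM + 1) between 18 and 8 months for each subunit gene (point) with its 95% interval from limma (line), core particle in purple and regulatory particle in orange, with the median of all genes tested as a dashed line. Intervals of 32 genes stayed within 0.5 of zero, and Psmd3, Psmd5 and Psmd8 were the genes whose interval left out zero.

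In the outer rings no gene stood apart by age. Psma4, an alpha subunit, measured 209.9, 237 and 234 TPM at 18 months against 216, 213 and 196 TPM at 8 months. The groups overlapped only through the first 18-month library, and the log2 difference was 0.12 with 95% limits from -0.092 to 0.34 (limma adjusted p = 0.62), or 0.080 without the third 8-month library. Psma7, the most abundant alpha subunit gene, measured 407, 518 and 447 TPM at 18 months against 463, 412 and 391 TPM at 8 months. The second 18-month library was the highest and the ages overlapped, with a difference of 0.11 and an interval from -0.16 to 0.39. That difference was 0.020 without the second 18-month library and 0.19 without the first. Psma1 measured 184, 215 and 216 TPM at 18 months against 232, 192 and 201 TPM at 8 months, and its highest value was in an 8-month library. The 8 alpha subunit genes had log2 differences between -0.022 and 0.12, with a median of 0.0032 and 5 higher. Psma8 measured 2.21, 2.30 and 1.19 TPM at 18 months against 1.84, 1.02 and 3.07 TPM at 8 months, a level near the filter, and its interval ran from -0.70 to 0.69.

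Among the beta subunits, Psmb5, the chymotrypsin-like cutting subunit (chromosome 14, 54614119 to 54618022, GRCm38), measured 119.7, 126 and 137.8 TPM at 18 months against 149.8, 153 and 138.5 TPM at 8 months. Every 18-month library lay below every 8-month library, the closest pair by less than 1 TPM, and the means were 128 ± 9.20 TPM for 18 months versus 147 ± 7.64 TPM for 8 months (SD, n = 3). The log2 difference was -0.20 with an interval from -0.42 to 0.016 (limma adjusted p = 0.41), -0.10 with median-of-ratios scaling, and -0.046 when log2 values were corrected for GC content and length of the transcripts. Of the 31-base sequences in Psmb5 transcripts, 71.7% were shared with other genes and 59.8% with the processed pseudogene Gm3375. Reads from such sequences cannot be assigned to a single gene by sequence alone. Gm3375 is not among the gene identifiers of the deposited values. Whether its reads were counted as Psmb5 is not known, and the value is uncertain. Psma5 is in the same position, with 61.0% shared. Smaller parts were shared in Psmc1 (32.2%), Psmd2 (31.6%), Psmd9 (26.6%), Psma4 (21.8%), Psmb3 (21.7%) and Psma3 (20.3%), and the same limit applies to their values in part.

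Psmb6, the caspase-like subunit, measured 257, 365 and 342 TPM at 18 months against 350.0, 296 and 316 TPM at 8 months. The first 18-month library was the lowest and the second the highest of all 6, and the difference was -0.01 with an interval from -0.35 to 0.33. Psmb7, the trypsin-like subunit, measured 175, 203 and 191 TPM at 18 months against 205, 187 and 181 TPM at 8 months, with a difference of -0.011 and an interval from -0.24 to 0.21. The difference of Psmb5 was not tested against those of Psmb6 and Psmb7.

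Of the structural beta subunits named here, Psmb3 and Psmb1 overlapped between the ages and Psmb4 did not. Psmb3, the most abundant subunit gene of all, measured 425, 594 and 546 TPM at 18 months against 553, 514 and 482 TPM at 8 months, a range that the 18-month libraries set at both ends. Psmb1 measured 307, 360.2 and 329 TPM at 18 months against 332, 312 and 304 TPM at 8 months, with a difference of 0.067 (0.006 without the second 18-month library, 0.12 without the first). Psmb4 measured 82.3, 90.2 and 82.8 TPM at 18 months against 92.6, 90.6 and 91.2 TPM at 8 months. All 18-month libraries of Psmb4 were below the 8-month ones, by a log2 difference of -0.10 with an interval from -0.30 to 0.095 (limma adjusted p = 0.66), and of -0.007 with median-of-ratios scaling. The 7 beta subunit genes had a median log2 difference of -0.011, with 2 higher and 5 lower.

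The ATPases of the cap showed the smallest spread of differences, from -0.047 for Psmc5 to 0.045 for Psmc3 over the 6 genes, with all 6 intervals within 0.5 of zero. Psmc1, the most abundant, measured 274, 296 and 294 TPM at 18 months against 313, 299 and 276 TPM at 8 months. Psmc3 measured 206, 217 and 207 TPM at 18 months against 228, 190.0 and 194 TPM at 8 months. In both genes the first 8-month library was the highest, and the ages overlapped.

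The non-ATPase subunits held the 3 genes with an unadjusted p under 0.05. Psmd3, a scaffold subunit of the lid (chromosome 11, 98682554 to 98695979, GRCm38), measured 27.0, 20.4 and 21.9 TPM at 18 months against 30.04, 35.4 and 36.3 TPM at 8 months. All 18-month libraries were below all 8-month ones, with means of 23.1 ± 3.50 TPM for 18 months versus 33.9 ± 3.37 TPM for 8 months (SD, n = 3). The log2 difference was -0.54 with an interval from -0.86 to -0.22 and did not pass (limma adjusted p = 0.19, the smallest of the 35). It was -0.36 when corrected for GC content and length, and lay between -0.66 and -0.46 when 1 library was left out. Psmd3 transcripts shared 1.62% of their 31-base sequences with other genes.

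Psmd5, an assembly factor, measured 71.5, 52.8 and 59.2 TPM at 18 months against 83.6, 77.1 and 69.4 TPM at 8 months. The first 18-month library lay above the third 8-month one, so the ages overlapped, and the difference was -0.33 with an interval from -0.64 to -0.02 (limma adjusted p = 0.34). Psmd8, a lid subunit needed for the last step of cap assembly, measured 114, 119 and 114 TPM at 18 months against 133, 131 and 134 TPM at 8 months. Its libraries were tight within each age and did not overlap, and the difference was -0.20 with an interval from -0.39 to -0.013 (limma adjusted p = 0.34), or -0.10 with median-of-ratios scaling as well as when corrected for GC content and length.

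Psmd2, a base subunit that docks ubiquitin carriers and the deubiquitinase USP14, measured 145, 122 and 138 TPM at 18 months against 149, 158 and 148 TPM at 8 months. Psmd4, a ubiquitin receptor of the cap, measured 140.2, 134 and 146 TPM at 18 months against 147, 152 and 159 TPM at 8 months. In both genes the 18-month libraries lay below the 8-month ones, by -0.17 with an interval from -0.40 to 0.049 for Psmd2 and by -0.12 with an interval from -0.32 to 0.075 for Psmd4. Corrected for GC content and length these became -0.11 and 0.001, and without the second 18-month library Psmd2 was at -0.10. Of the Psmd2 sequences of 31 bases, 29.3% also occurred in the transcribed pseudogene Gm5422, while Psmd4 shared none with other genes. In all, 6 of the 35 genes were lower at 18 months without overlap (Psmb4, Psmb5, Psmd2, Psmd3, Psmd4 and Psmd8), a share of members near the background of 14.2% of all genes. None was higher without overlap, where 4.48% of all genes were, and 18.7% of all genes did not overlap in either direction.

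On the higher side of the regulatory particle, Psmd10, the assembly factor also called gankyrin, measured 41.1, 39.3 and 35.8 TPM at 18 months against 37.3, 36.6 and 31.4 TPM at 8 months. The lowest value was in the third 8-month library, and the difference was 0.14 with an interval from -0.12 to 0.40, or 0.065 without that library. Psmd13, a lid subunit, measured 107, 111 and 111 TPM at 18 months against 115, 101 and 96.7 TPM at 8 months, with a difference of 0.071 (0.018 without the third 8-month library, 0.14 without the first). Psmd14, the deubiquitinase of the lid that removes ubiquitin from substrates, had a mean of 107 ± 8.83 TPM for 18 months versus 105 ± 9.45 TPM for 8 months (SD, n = 3) and a difference of 0.021. The 8 lid genes had a median log2 difference of -0.028 and the 9 base genes, the ATPases with Psmd1, Psmd2 and Psmd4, one of -0.037. The 6 ATPase genes alone had a median of 0.0097, with 4 higher and 2 lower. The 14 Psmd genes had one of -0.061, with 5 higher and 9 lower, beside -0.079 over all genes.

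The libraries differed from each other as whole sets. Summed over the 35 genes, the level was 6293, 7038 and 6832 TPM in the 18-month libraries and 7210.4, 6528 and 6499 TPM in the 8-month libraries, with means of 6721 ± 385 and 6746 ± 402 TPM (SD, n = 3). The first 8-month library had the highest value of 17 genes and the lowest of none. The first 18-month library had the lowest value of 12 genes, of which 9 were core genes. The second 18-month library had the highest value of 7 core genes and the lowest of 8 regulatory genes, and the highest of no regulatory gene.

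**Figure D3:**
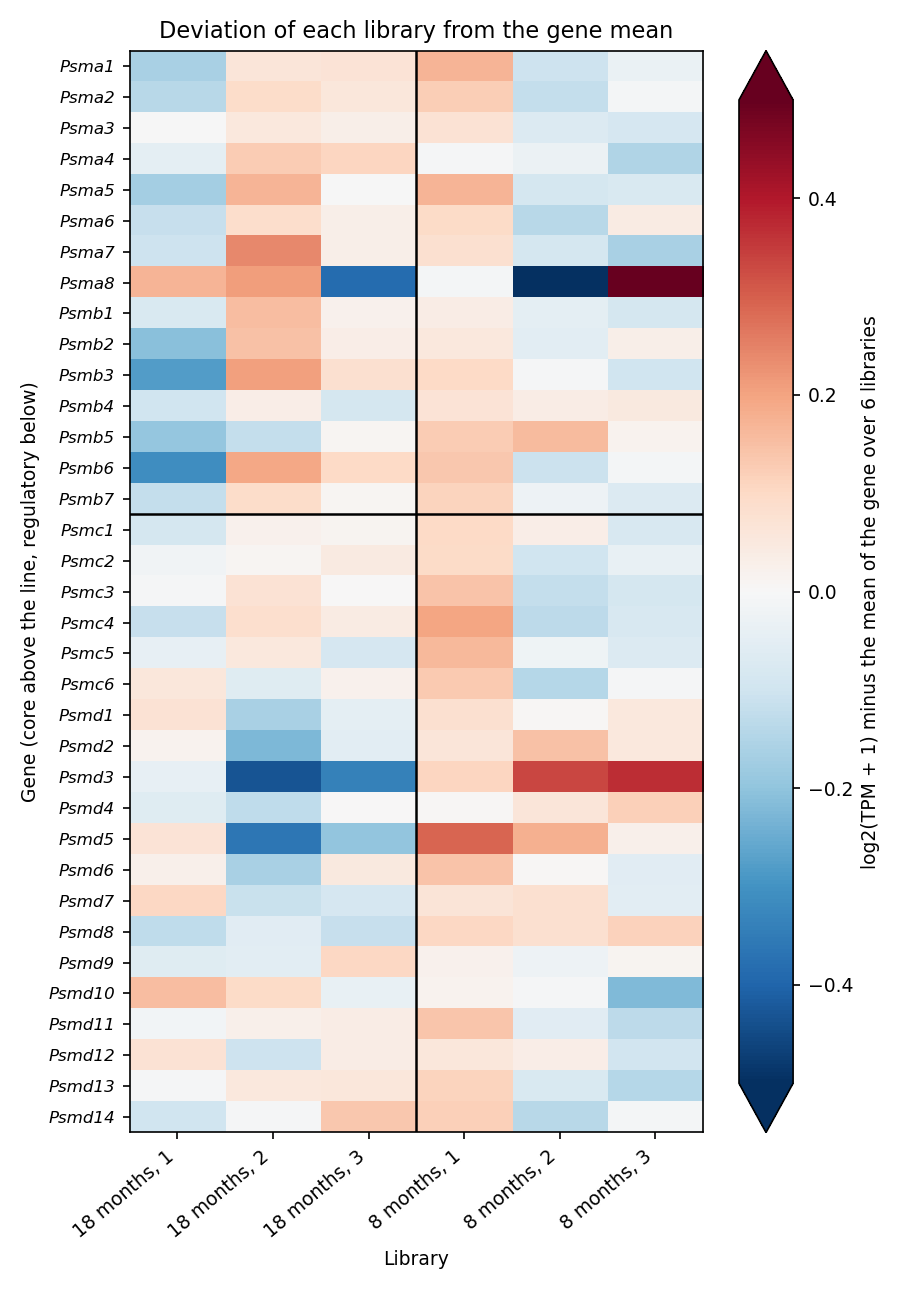
Heat map of log2(TPM + 1) in each library minus the mean of the gene over the 6 libraries, with core genes above the line and regulatory genes below, and 18-month libraries on the left. The first 8-month library is red in most rows, the second 18-month library is red for most core genes and blue for many Psmd genes, and Psmd3 is the row that separates the ages most.

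The balance of the particles differed more among the 18-month libraries. Core genes summed to 3537, 4315 and 4048 TPM at 18 months and to 4187, 3769.6 and 3778 TPM at 8 months. Regulatory genes summed to 2756, 2723 and 2784 TPM at 18 months and to 3023, 2759 and 2722 TPM at 8 months. The ratio of the sums was 1.28, 1.58 and 1.45 at 18 months and 1.38, 1.37 and 1.39 at 8 months, so the 18-month libraries lay on both sides of a narrow 8-month range. The mean ratio was 1.44 ± 0.151 at 18 months and 1.38 ± 0.0116 at 8 months (SD, n = 3), a description without a test. The median log2(TPM + 1) of the regulatory genes was 7.09, 6.93 and 7.08 at 18 months and 7.18, 7.12 and 7.15 at 8 months. It was thus lower at 18 months without overlap, by -0.12 between the group means, beside a median difference of -0.079 over all genes. The core medians, 7.88, 8.11 and 8.08 against 8.15, 7.91 and 8.01, overlapped. These medians were not tested either. In mean log2(TPM + 1) the core exceeded the regulatory particle by 0.56, 0.87 and 0.71 in the 18-month libraries and by 0.66, 0.59 and 0.69 in the 8-month libraries. With the correction the 18-month values were 0.56, 0.86 and 0.70. Median transcript lengths were 851 bases for core and 954 bases for regulatory genes.

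The immunoproteasome subunits were highest in the second 18-month library. Psmb9 measured 299, 668 and 394 TPM at 18 months against 279, 255 and 270.5 TPM at 8 months. Psmb8 measured 254, 472 and 266 TPM at 18 months against 244, 207 and 253 TPM at 8 months. Psmb10 measured 309, 579 and 389 TPM at 18 months against 360.3, 299.8 and 311 TPM at 8 months. The ages did not overlap for Psmb9 and Psmb8, where 4.48% of all genes tested were higher without overlap. The closest Psmb8 values of the ages were 254 and 253 TPM. None of the 3 genes passed (limma adjusted p = 0.32, 0.46 and 0.53). The log2 differences were 0.67, 0.44 and 0.35, and 0.35, 0.15 and 0.10 without that library. Within a library, Psmb9 over Psmb6, the subunit it replaces, was 1.16, 1.83 and 1.15 at 18 months and 0.798, 0.862 and 0.855 at 8 months, without overlap. Psmb8 over Psmb5 was 2.12, 3.75 and 1.93 at 18 months and 1.63, 1.36 and 1.83 at 8 months, also without overlap. Psmb10 over Psmb7 was 1.77, 2.86 and 2.03 against 1.76, 1.61 and 1.72, without overlap by a small margin (closest values 1.768 and 1.758). How often ratios of other gene pairs did not overlap was not counted. These ratios are given without a test, and the ratio over Psmb5 shares the uncertainty of the Psmb5 value stated above.

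**Figure D4:**
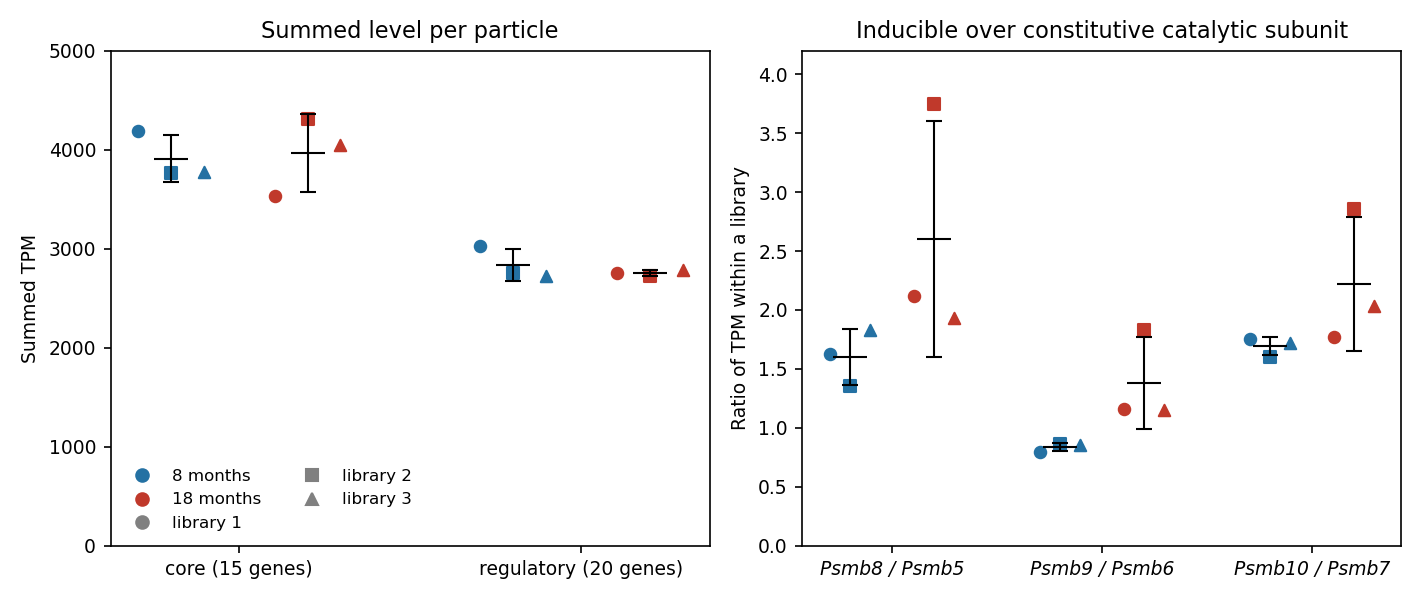
Left, summed TPM of the 15 core and the 20 regulatory genes per library, and right, the ratio of each inducible cutting subunit to the constitutive one it replaces within a library, with 8 months in blue, 18 months in red and bars for the mean and SD of 3 libraries. The sums overlapped between the ages, and the second 18-month library, with ratios of 3.75, 1.83 and 2.86, was the highest in all 3 ratios.

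Genes that work with the proteasome were taken from lists, and none of their tested members passed in either direction (limma, adjusted over all genes tested). Of the 2 cap subunits outside the name rule, Adrm1, a ubiquitin receptor, measured 117, 98.5 and 103 TPM at 18 months against 145, 159 and 139 TPM at 8 months, without overlap, a difference of -0.47 with an interval from -0.71 to -0.24 (limma adjusted p = 0.15), or -0.31 when corrected for GC content and length. Sem1, a small lid subunit, had a difference of 0.022. The 5 activators and inhibitors had a median of 0.11 (0.076 to 0.15 with 1 library left out), with Psme1 at 393, 552 and 413 TPM at 18 months against 397, 354 and 356 TPM at 8 months. Psme2, its partner in the interferon-induced cap PA28, measured 413, 681 and 472 TPM at 18 months against 433, 401 and 398 TPM at 8 months. As with the immunoproteasome, the second 18-month library was the highest for both, and without it the differences were 0.13 and 0.10 in place of 0.28 and 0.31.

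The 5 core assembly chaperones had a median of 0.023 that changed sign with single libraries: without the second 18-month library it was -0.049 with none higher, and with the third or the first 8-month library left out it was -0.064 or 0.12. Psmg1 was at 11.1, 11.7 and 8.83 TPM at 18 months against 13.7, 12.8 and 12.6 TPM at 8 months, lower without overlap (difference -0.29, limma adjusted p = 0.44, or -0.17 without the third 18-month library). The ages overlapped in the 4 other genes, among them Psmg3 (difference 0.083). The 6 deubiquitinases, ligases and other proteins that sit on the proteasome had a median of -0.13 with none higher, where 66.2% of all genes were lower (2 of 6 higher with median-of-ratios scaling, 1 of 6 when corrected for GC content and length). Without the second 18-month library that median was -0.00079 with 3 of 6 higher, and without the second 8-month library -0.032 with 2 higher. Uchl5 (-0.15, or -0.036 without the second 8-month library) and Txnl1 (-0.11, or 0.003 without the second 18-month library) had the smallest p. The 6 ubiquitin shuttle receptors had a median of -0.091 (0.0026 with median-of-ratios scaling, -0.17 without the first 18-month library and -0.050 without the first 8-month library), with Rad23b lower without overlap at 10.7, 10.0 and 9.74 against 11.2, 11.2 and 12.9 TPM. Ddi2, a protease that activates NRF1, had a difference of -0.18, or -0.28 without the first 18-month library.

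The 10 genes of proteasome gene control and the p97 complex were all lower, with a median of -0.095, beside 66.2% lower and a median of -0.079 over all genes. Ddi2, already counted among the shuttle receptors, is also among these 10. With median-of-ratios scaling 5 of 10 were higher and the median was 0.0013. Corrected for GC content and length, 4 of 10 were higher and the median was -0.018. Without the third 8-month library the median was -0.15, and without the second 8-month library 3 of 10 were higher. Vcp, the p97 ATPase that pulls proteins out of complexes ahead of the proteasome, measured 168, 131 and 144 TPM at 18 months against 172, 196 and 199 TPM at 8 months, without overlap (difference -0.36, limma adjusted p = 0.25). Nfe2l1, which encodes NRF1, the factor that raises proteasome genes when proteasomes fail, measured 47.6, 30.3 and 42.0 TPM at 18 months against 40.4, 59.99 and 49.6 TPM at 8 months, with overlap. Of the ubiquitin genes, Ubb had a difference of 0.092 (-0.17 after quantile normalization, 0.025 without the second 8-month library) and Rps27a one of -0.032 (0.065 with median-of-ratios scaling). The 10 ubiquitin-activating and heat shock genes had a median of -0.13 with 2 higher (4 with median-of-ratios scaling). Without the second 18-month library this median was 0.031 with 6 of 10 higher, and without the first 18-month library -0.43 with 1 higher. Among them were Bag3, a co-chaperone of selective autophagy, at 80.6 ± 11.7 TPM for 18 months versus 107 ± 4.35 TPM for 8 months (SD, n = 3, difference -0.41, limma adjusted p = 0.20) and Hsph1, a heat shock protein, which measured 9.48, 0.970 and 1.17 TPM at 18 months against 10.9, 6.58 and 4.13 TPM at 8 months, lowest in the second and the third 18-month libraries.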

How the data were processed

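RNA came from frozen pellets of sorted cells (PicoPure kit), with 10 ng per SMARTer Ultra Low library and paired reads of 100 bp, per the labels' protocols. The values deposited by the authors are TPM per Ensembl gene, made with kallisto and mm10 per the submitters' processing notes. Its version, the transcript set and the strand handling are not given in the sources used. TPM hold no read depth, which is therefore unknown, and no counting error can be stated. Columns sum to between 869315 and 876126 TPM.

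Symbols, positions, lengths and GC content came from GENCODE M21 on GRCm38 (mm10), which held 24298 of the 24520 identifiers. The 12748 genes averaging 1 TPM or more were tested as log2(TPM + 1), a scale that understates changes of low genes, with limma 3.58.1 in R 4.3.3 (intensity trend, no covariate but age, 2-sided, Benjamini-Hochberg adjusted, threshold 0.05). The code was checked on simulated data. Particles and lists were described without a test. Promoters were RefSeq's (GRCm38.p6), and shared sequences of 31 bases were counted over GENCODE transcripts.

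The subunit genes and the lists were chosen with earlier results of these data known. Named were, per particle, the 3 largest differences each way and the highest and lowest level, the cutting subunits, genes without overlap, all 3 immunoproteasome subunits and, by smallest unadjusted p, up to 3 genes per list. That number was narrowed to 2 per list and 1 per marker list after the values were seen. All other genes named, such as Psmd14, Pecam1 and Chil3, were chosen after their values were seen. Paaf1 was not analysed here, and 1 other gene, taken out of a list, is not reported here. Alternatives were other pseudocounts, filters and scalings, no trend, library weights, protein-coding genes alone, a replicate block, a loess correction (span 0.75) for GC content and length, and each library left out.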

Additional observations from a re-analysis of the deposited data

How the results depend on the processing

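No subunit gene passed under any of the alternatives, all of them planned. The smallest value of a subunit gene under any of them came with library weights (limma adjusted p = 0.057). Over all genes limma called 3, and 0 without the filter on low values, 16 with median-of-ratios scaling, also 16 after quantile normalization, 94 with library weights, 28 with protein-coding genes alone, 6 when corrected for GC content and length, and 0 to 2 with 1 library left out. The cause was not tested. Genes with an unadjusted p under 0.05 numbered 440 higher and 1274 lower, against 757 and 879 with median-of-ratios scaling, 751 and 979 with quantile normalization and 771 and 734 with the correction. The replicate numbers are not said to pair the libraries. Deviations of same-numbered libraries correlated at -0.012, -0.090 and 0.057, and those of different numbers between -0.069 and 0.083. With 3 libraries per age these values cannot decide whether libraries were paired. With the replicate block 0 genes passed, also when combined with the correction (422 higher and 1023 lower at an unadjusted p under 0.05 for the block alone).

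The regulatory median was 0.075 with median-of-ratios scaling. Of 360 recomputed differences of the 19 subunit genes named by the stated rule 44 changed sign, and of 471 of 25 other genes so named 14. Genes named outside that rule, such as Psmd14 and Psmc5, are not in these counts. With median-of-ratios scaling Psma1 was at 0.075, Psma8 at 0.056, Psmb6 at 0.087, Psmb7 at 0.086, Psmc1 at 0.061 and Rps27a at 0.065. With quantile normalization Psma1 was at 0.014, Psma8 at 0.027, Psmb6 at 0.013, Psmb7 at 0.034, Psmc1 at 0.007 and Ubb at -0.171. With library weights Psma1 was at 0.039, Psmb6 at 0.067, Psmb7 at 0.006 and Psmg3 at -0.022. With protein-coding genes alone Psma1 was at 0.012, Psma8 at 0.020, Psmb6 at 0.024, Psmb7 at 0.022 and Rps27a at 0.002. Corrected for GC content and length, with and without the replicate block, Psma1 was at 0.002, Psma8 at 0.022, Psmb6 at 0.082, Psmb7 at 0.044, Psmc1 at 0.015, Psmd4 at 0.001 and Rps27a at 0.013. Psma8 was at 0.017 and 0.004 with pseudocounts of 0.1 and 0.5.

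With 1 library left out, the range was -0.080 to 0.058 for Psma1, -0.255 to 0.251 for Psma8, -0.097 to 0.144 for Psmb3, -0.11 to 0.142 for Psmb6, -0.061 to 0.046 for Psmb7, -0.085 to 0.004 for Psmc1, -0.004 to 0.128 for Psmc3, -0.061 to 0.139 for Sem1, -0.103 to 0.217 for Psmg3, -0.168 to 0.003 for Txnl1, -0.101 to 0.024 for Rps27a and -1.149 to 0.107 for Hbb-bt.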
